A study of Mus musculus with 4 samples.

Results

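The cytosines described here lie in the 100 kb of mouse chromosome X around Naa10 and were selected by position alone, whatever their depth or methylation, in the coordinates of build mm9. Within this stretch 233 cytosines had a call in at least 1 of the 4 libraries, of 125110 on chromosome X and 4945106 in the whole data set. The first lay at position 71125427 and the last at 71218120, and they fell into 22 clusters separated by more than 500 bp. The interval taken for Naa10 was chrX:71162200-71167300 on the minus strand, so its 5′ end is at the higher coordinate. These bounds are approximate and were not checked against an annotation of mm9, so no exon or intron is given. Of the 233 cytosines, 63 lay below this interval, 27 inside it and 143 above it.

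Mouse embryonic stem (ES) cells of 2 genotypes were compared by reduced representation bisulfite sequencing, a method that measures CpG methylation in fragments left by the enzyme MspI, a cutter of the sequence CCGG. There were 2 libraries of wild-type (WT) cells and 2 of Naa10 knockout (KO) cells. Culture was the same for both genotypes: N2B27 with LIF, a Mek inhibitor and a Gsk3 inhibitor, first over irradiated feeder fibroblasts and for the last 5 passages feeder-free. The labels do not say how the Naa10 allele was made, or whether libraries of a genotype came from separate clones or cultures, so every p-value rests on the spread between these libraries alone, and that spread may be technical. Bisulfite data hold no expression values, so neither ES cell markers nor the loss of Naa10 RNA could be checked.

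Naa10 encodes the catalytic subunit of NatA, the N-terminal acetyltransferase that modifies nascent proteins at the ribosome, where its partner Naa15 anchors it. Its neighbours here are Arhgap4, Renbp and Hcfc1. Renbp encodes the renin-binding protein, an enzyme of N-acyl sugar metabolism, and Hcfc1 the transcriptional coregulator host cell factor C1. The gene table, which follows another build (GRCm38.p6) and was used for order only, lists L1cam, Avpr2, Arhgap4, Naa10, Renbp and Hcfc1 from low to high coordinate, so Arhgap4 lies downstream of Naa10 and Renbp and Hcfc1 lie upstream.

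Because the assay reads fragments that end in CCGG, a promoter is seen only where such sites lie near it. The 250 bases before the start of Naa10 and of Hcfc1 are shown for this reason, from RefSeq (GRCm38.p6, minus strand of chromosome X, 5′ to 3′), with the bases of CpG sites in capitals.
Naa10: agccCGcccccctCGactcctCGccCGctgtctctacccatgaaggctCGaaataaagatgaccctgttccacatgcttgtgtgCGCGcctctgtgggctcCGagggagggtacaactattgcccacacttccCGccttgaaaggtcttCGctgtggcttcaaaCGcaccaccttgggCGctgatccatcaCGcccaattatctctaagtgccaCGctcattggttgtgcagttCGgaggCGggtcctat
Hcfc1: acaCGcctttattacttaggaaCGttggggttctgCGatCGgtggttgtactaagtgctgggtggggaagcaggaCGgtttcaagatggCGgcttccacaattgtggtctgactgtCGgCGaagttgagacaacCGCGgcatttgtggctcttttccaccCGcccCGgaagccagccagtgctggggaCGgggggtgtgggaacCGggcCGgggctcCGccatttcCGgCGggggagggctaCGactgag
The Naa10 sequence held 16 CpG sites and 0 copies of CCGG, and that of Hcfc1 held 19 CpG sites and 4 copies. For Arhgap4 the numbers were 10 and 2, and for Renbp 5 and 0. CCGG reads the same on both strands, and 47.1% of 32851 promoter sequences of 250 bases held it. A match describes the letters only.

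No promoter of the stretch could be placed on the deposited positions from the spacing of its CpG sites, with 0 of 7 genes placed, Naa10, Arhgap4, Renbp and Hcfc1 among those tried. Values around the neighbours are therefore given by position and by side of Naa10, not by gene start, exon or intron.

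The libraries held 79540412 and 68586396 calls in WT replicates 1 and 2 and 68929594 and 70594987 in KO replicates 1 and 2. On the stretch around Naa10 these were 2615, 2105, 1522 and 1756 calls, over 158, 199, 125 and 146 cytosines. The median depth of the covered cytosines was 14, 8, 9 and 12 calls in the same order, and 57 cytosines reached 10 calls in all 4 libraries. Intervals below treat every call as independent and leave out the spread between libraries. Neighbouring cytosines on 1 read are not independent, and it is not known whether duplicate reads were removed. The intervals are therefore likely too narrow even for counting error.

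Inside Naa10, sequence that both WT libraries covered well was almost absent from both KO libraries. A cluster of 24 cytosines at chrX:71166662-71166983 began 317 bases and ended 638 bases inside the 5′ end of the Naa10 interval. WT replicate 1 had 491 calls there and WT replicate 2 had 447, while KO replicate 1 had 0 and KO replicate 2 had 7. Set against the library total, as calls per 1000000 calls of the library, this was 6.17 and 6.52 in WT against 0 and 0.0992 in KO. The genotypes did not overlap, and the KO mean was 0.781% of the WT mean.

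Within the cluster, a cytosine had 11 to 34 calls in WT replicate 1, with a mean of 20.5, and 4 to 33 in WT replicate 2, with a mean of 18.6. All 24 cytosines were covered in both WT libraries. In KO replicate 1 all 24 were without a call, although the WT rate would have given a mean of 18.2 calls per cytosine at its depth. At a single cytosine a count of 0 allows up to 3 calls, or 16.5% of that depth. In KO replicate 2 the 7 calls were 1 each at 7 cytosines between 71166848 and 71166983, which span 136 bp, and the other 17 cytosines had none. The WT rate would have given a mean of 18.7 in this library. The 24 cytosines showed only 8 different sets of 4 depths, so they stand for far fewer independent reads.

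**Figure D1:**
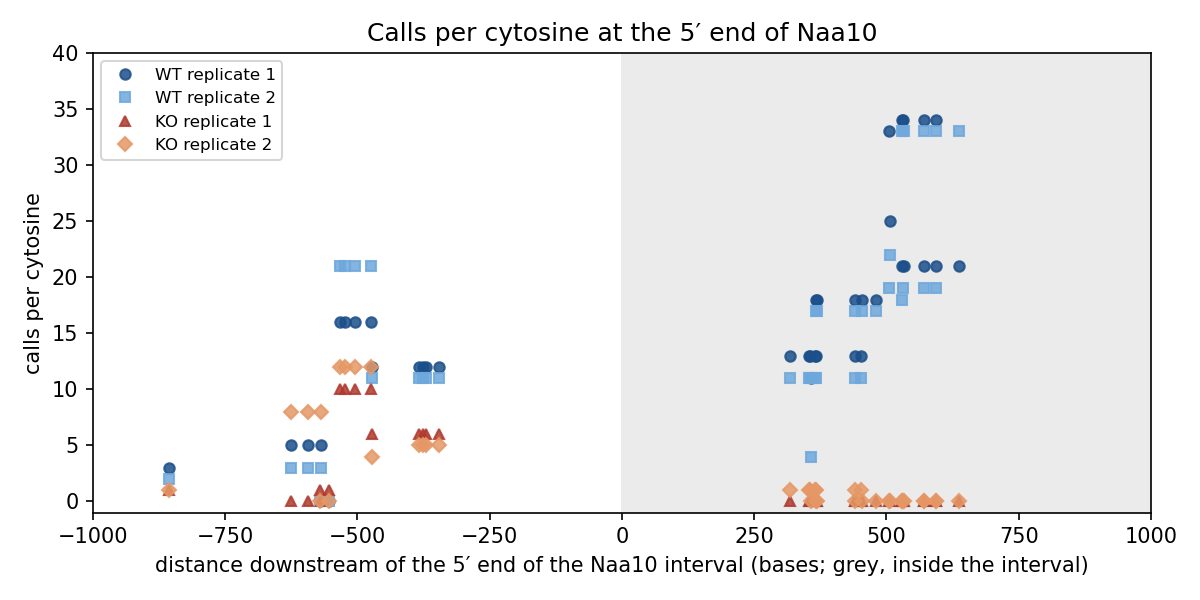
Calls per cytosine (y axis) against the distance in bases downstream of the 5′ end of the Naa10 interval (x axis, grey inside the interval), 1 point per cytosine and library. Inside the interval the WT libraries reach 34 and 33 calls and the KO libraries no more than 1, whereas upstream of it all 4 libraries have calls.

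The WT cells were almost unmethylated there. In WT replicate 1 the level over the cluster was 1.02% (95% Wilson interval 0.436 to 2.36%) and in WT replicate 2 it was 0.895% (0.349 to 2.28%). KO replicate 1 gave no level, and all 7 calls of KO replicate 2 were unmethylated.

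Positions read in both KO libraries lay close to the Naa10 interval on both sides, but outside the Naa10 cluster WT was almost uncovered between them too. The closest positions read in both KO libraries were 71160779, which is 1421 bp below the interval, and 71167646, which is 346 bp above it. The 6866 bp between them held 27 cytosines with a call in any library, the 24 of the cluster and 3 others at the low end, each read 1 time in WT replicate 2 only. The ends of the KO gap could thus be read no more finely than the assay covers cytosines.

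On the low side, 8 cytosines at chrX:71160571-71160779 had mean depths of 9.0 and 7.63 calls in WT and 9.0 and 7.75 in KO. Their KO to WT ratio of calls per 1000000 was 1.07, and the genotypes overlapped. On the high side, 9 cytosines at chrX:71167646-71167834 had mean depths of 13.8 and 15.4 calls in WT and 7.78 and 8.0 in KO, a ratio of 0.568, with each KO library below each WT library. These 9 were the closest that all 4 libraries read. Over all 15 cytosines of their cluster, which ends at 71168156, the ratio was 0.613, with the same order of libraries.

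The same contrast was tested on the calls of every 1 kb window of the genome with the quasi-likelihood test of edgeR, and windows past an adjusted p of 0.05 with at least a 2-fold difference were called. In the 15 windows of the stretch that could be tested, of 27 with any call, 1 was lower in KO and none was higher, nor was any higher at an unadjusted p below 0.05 or with DESeq2. Over all 254160 tested windows 0.00866% were lower and 0.000787% were higher, and on chromosome X 0.0704% and 0.0141%. The 1 window called, at chrX:71166001-71167000, holds the Naa10 cluster. Its fitted difference was -6.95 on the log2 scale (edgeR adjusted p = 0.0106), and its unadjusted p of 5.16e-08 ranked 1 of 254160. The fitted value was -7.01 with DESeq2. Without KO replicate 2 all KO calls were 0, so there the fitted value depends on the prior count and is no bound. It was -11.85 without KO replicate 2 and -6.00 without KO replicate 1. The window was also called in the other fits of all 4 libraries with 1 kb windows. Adjusted p ran from 0.0011 (edgeR with the replicate number as a block) to 0.0406 (DESeq2). Only edgeR without the filter on low counts gave a far lower value, 9.3e-99.

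The window next to it, at chrX:71167001-71168000, holds the upstream flank and had 139 and 148 calls in WT against 72 and 96 in KO. Both KO libraries were lower, but the difference of -0.71 on the log2 scale did not pass (edgeR adjusted p = 0.469). This order was not particular to the flank. The distant window at chrX:71213001-71214000 had 378 and 324 calls in WT against 184 and 276 in KO (log2 difference -0.54, edgeR adjusted p = 0.515). The 14 tested windows other than that of the Naa10 cluster had log2 differences of -0.76 to 0.36. The median over the 15 windows was 0.08, against -0.04 on chromosome X.

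The stretch as a whole took a smaller share of the calls in KO. It held 32.9 and 30.7 calls per 1000000 in WT and 22.1 and 24.9 in KO, or 31.8 ± 1.55 (SD, n = 2) against 23.5 ± 1.98 (SD, n = 2). The KO to WT ratio was 0.739, without overlap of the genotypes (two-sided exact permutation test, p = 0.33, the smallest that 2 against 2 libraries allow). Without the Naa10 interval the shares were 26.7 and 24.1 in WT and 22.1 and 24.8 in KO, the genotypes overlapped, and the ratio was 0.922 (exact permutation test, p = 0.667).

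**Figure D2:**
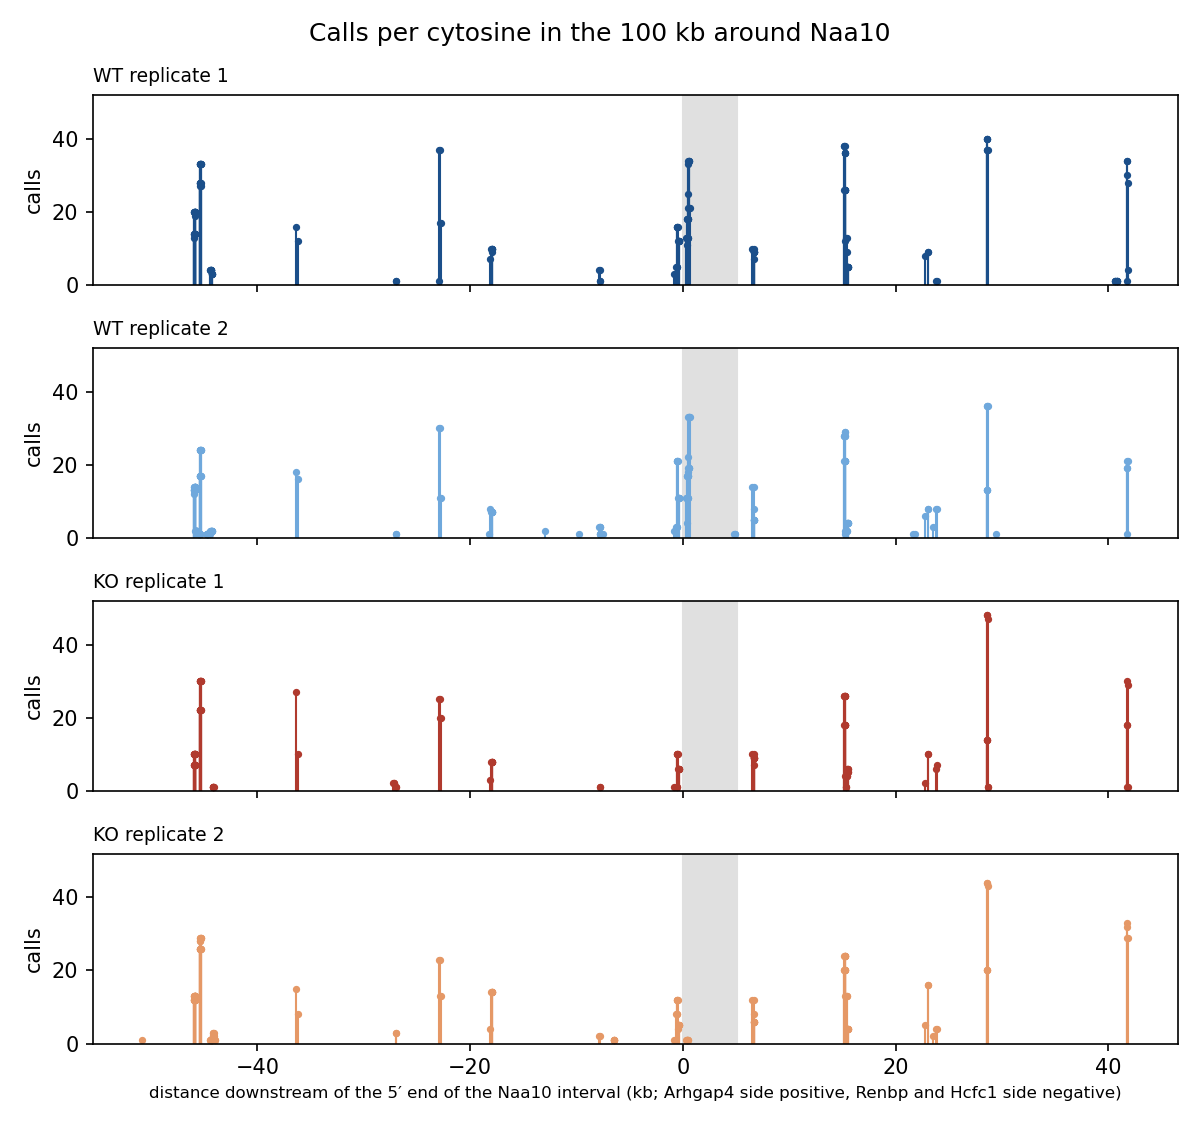
Calls per cytosine (y axis) in each of the 4 libraries along the 100 kb stretch, by distance in kb downstream of the 5′ end of the Naa10 interval (x axis), which is shaded; 1 stem per covered cytosine. The cluster just inside the shaded interval reaches 34 and 33 calls in WT but 0 and 1 in KO, while the other deep clusters appear in all 4.

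Cytosines read in both libraries of only 1 genotype lay mostly in Naa10. At any depth, 134 of the 233 cytosines had a call in both genotypes, 74 in WT only and 25 in KO only. Most of the 74 and most of the 25 were read in 1 library alone. These 74 and 25 are therefore no measure of sequence missing from the other genotype. Of those read in both libraries of one genotype and in neither of the other, 17 were specific to WT, all 17 in the Naa10 cluster, and 6 were specific to KO. The 6 had 1 call each in KO replicate 1. No share over all cytosines was taken at any depth, so these counts were not set against a background. With at least 10 calls asked in both WT libraries, 16 of 98 cytosines of the stretch (16.3%) had 0 in both KO libraries, against a background of 0.139% on chromosome X and 0.00453% over all chromosomes. In the opposite direction it was 0 of 59 in the stretch, beside 0.01% on chromosome X and 0.000345% over all chromosomes. At least 20 calls in WT left 6 such cytosines, and leaving out a library gave 16 to 23.

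Among regions of this pattern elsewhere, likeness was measured by the number of such cytosines and by their mean WT depth. In the genome 13 clusters held 3 or more, 6 of them on chromosome X, and the Naa10 cluster came first with 16 cytosines at a mean WT depth of 23.6 calls. It was followed by chr13:66245175-66245298 with 14 cytosines at 15.0 calls, chr10:109075718-109075803 with 7 at 12.0, and chr5:85943423-85943464 with 6 at 16.5. The fifth was chrX:71118463-71118650 with 5 at 18.2, which lies just below the stretch.

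The Naa10 cluster differed from the 4 others in methylation. Cytosines of its span were methylated at 1.17% in WT replicate 1 and 1.00% in WT replicate 2. The others, in the same order of libraries, were at 86.1 and 89.7%, 95.4 and 99.3%, 97.5 and 96.2%, and 69.8 and 65.1%. The KO libraries had 0 calls over the span of the cluster at chrX:71118463-71118650, but 64, 5 and 4 calls at further cytosines inside the spans on chromosomes 13, 10 and 5.

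Along chromosome X such cytosines lay on both sides of Naa10. There were 12 clusters, from -1.65 to 12.7 Mb of the Naa10 cluster, where negative distances point to lower coordinates, with 2 clusters below it and 9 above. Within 0.1 Mb of it 21 of 187 cytosines covered in WT were absent in KO (11.2%), between 2 and 5 Mb above it 16 of 707 (2.26%), and between 0.1 and 2 Mb above it 0 of 724. None lay more than 2 Mb below it or more than 15 Mb above it.

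**Figure D3:**
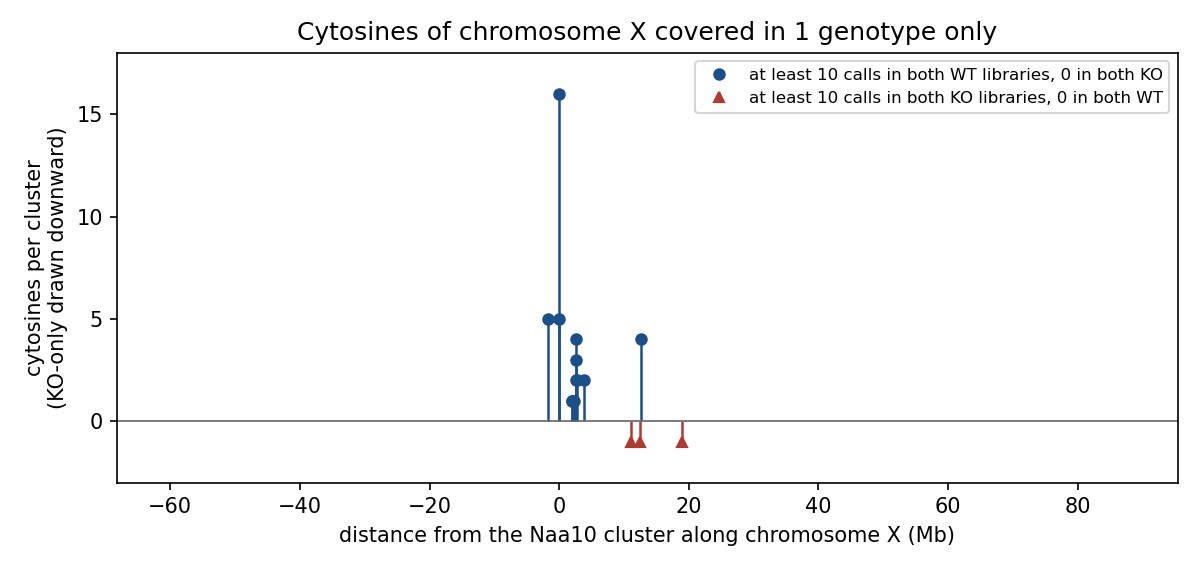
Number of cytosines per cluster (y axis) covered at least 10 times in both libraries of 1 genotype and not at all in the other, by distance in Mb from the Naa10 cluster along chromosome X (x axis); WT-only upward, KO-only downward with 1 cytosine each. The Naa10 cluster holds 16, no other cluster more than 5, and the WT-only clusters lie between -1.65 and 12.7 Mb.

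The window test called 4 further windows of chromosome X as lower in KO and 1 as higher. The nearest, at -48.7 kb, is the window of the cluster just below the stretch, with 96 and 86 calls in WT and 0 in both KO libraries (edgeR adjusted p = 0.026). The others lower in KO were at -1.65 Mb, with 176 and 183 calls in WT against 2 and 7, at 2.58 Mb, with 66 and 90 against 3 and 3, and at 2.64 Mb, with 156 and 97 against 4 and 3 (adjusted p of 0.0193, 0.0493 and 0.0215). All of these were well methylated in WT, at 65.1 to 95.6%.

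The 1 window higher in KO lay at 1.46 Mb. Its 26 cytosines at chrX:72627673-72627841 had no call in WT, against 176 and 238 in KO (edgeR adjusted p = 0.0106). Like the Naa10 cluster in WT, these 26 cytosines had little methylation, at 0.568 and 0.42% in KO.

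Methylation of the covered neighbourhood was much lower in KO. Over the 57 cytosines read at least 10 times in every library, methylation averaged 30.9 and 31.4% in WT against 10.2 and 6.82% in KO. This was 31.1% ± 0.346 (SD, n = 2) against 8.53% ± 2.41 (SD, n = 2), a difference of -22.6 percentage points, again without overlap (exact permutation test, p = 0.33, the smallest possible). The KO mean was 27.4% of the WT mean, beside 30.1% over 25758 cytosines of chromosome X and 28.8% over the autosomes. The Naa10 cluster itself does not enter, since the KO libraries gave it no usable depth.

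Downstream of Naa10, on the side of Arhgap4, the 24 shared cytosines had means of 51.7 and 55.4% in WT and 16.5 and 10.1% in KO. Upstream, on the side of Renbp and Hcfc1, the 33 shared cytosines had 15.7 and 13.9% in WT and 5.65 and 4.42% in KO. The KO mean was 24.9% of the WT mean downstream and 34.0% upstream, and the difference between the sides was not tested.

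The difference lay mostly at cytosines that were methylated in WT. The 18 cytosines with a WT mean of at least 50% stood at 78.7 and 79.0% in WT and at 26.0 and 18.0% in KO, and at 18 of 18 each KO library was below each WT library. Among cytosines of this WT level the same order held at 99.7% over all chromosomes and 99.3% on chromosome X. Of the 9 with a WT mean between 10 and 50%, 8 showed it, beside 88.9% over all chromosomes and 84.4% on chromosome X. Of the 30 under 10%, 1 did, beside 5.55% and 10.6%, and these had means of 2.61 and 0.891% in WT and 0.519 and 0.533% in KO. These counts are close to the background. At none of the 57 was each KO library above each WT library, beside 0.516% over all chromosomes, and the highest level of a single cytosine in KO was 48.0%. Since these classes use the WT levels themselves, they describe where the difference lies and test nothing.

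Windows of 1 kb were tested for methylation with edgeR on methylated and unmethylated counts, and windows past an adjusted p of 0.05 with at least 10 percentage points were called. Of 7 windows of the stretch that had enough depth, 3 were lower in KO and none was higher, nor was any higher at an unadjusted p below 0.05, with limma or with Fisher's exact test. Over all 121563 tested windows 76.3% were lower and 0.00247% were higher, and on chromosome X 70.2% were lower, so 3 of 7 is no more than the background. The 3 were those with a WT level of at least 20%. A window with a WT level under 10% could not fall by 10 points, so it could not be called lower. This held for the windows with WT means of 3.94, 1.18 and 1.11%.

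The window at chrX:71138001-71139000, downstream of Naa10, stood at 89.2 and 90.5% in WT and 18.9 and 13.6% in KO. Its difference was -73.6 points (edgeR adjusted p = 8.98e-19). The window at chrX:71152001-71153000, on the same side, stood at 51.3 and 60.1% against 18.9 and 10.98%, a difference of -40.8 points (edgeR adjusted p = 1.63e-07). Upstream, the window at chrX:71190001-71191000 stood at 91.7 and 85.4% against 36.7 and 30.6%, a difference of -54.9 points (edgeR adjusted p = 4.81e-09). In each of the 3, each KO library was below each WT library, an order found at 89.0% of all tested 1 kb windows. As a share of the WT level, the KO level of these 3 had a median of 26.8%, beside 28.5% over the windows of chromosome X with a WT level of at least 20% and 26.7% over all such windows.

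The 4 windows that did not pass had little methylation in WT. That at chrX:71125001-71126000 had 14.3 and 12.5% in WT and 10.5 and 5.69% in KO (edgeR adjusted p = 0.255). That at chrX:71167001-71168000, just upstream of Naa10, had 3.13 and 4.76% in WT and 0% in both KO libraries (adjusted p = 0.0515). Those at chrX:71212001-71213000 and chrX:71213001-71214000 lay at 2.35% or less in every library (adjusted p = 0.0584 and 0.506).

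Of the clusters without the 3 cytosines at 10 calls in every library that the test needed, some had at least 20 calls in every library. Those with over 50% methylation in WT were 3, and all 3 were lower in KO. No share over clusters was taken. Among single cytosines with a WT mean of at least 50%, 99.7% over all chromosomes had each KO library below each WT library. The 3 of 3 is thus no more than that background. At chrX:71143361-71144493, between 28 and 47 calls per library gave 96.4 and 80.5% in WT against 37.1 and 6.38% in KO. At chrX:71185236-71185528 the levels were 72.7 and 54.9% against 25.5 and 29.5%, and at chrX:71203509-71203705 they were 89.3 and 85.3% against 35.1 and 17.4%. A cluster of 31 cytosines at chrX:71211321-71212077 had the opposite order over all its calls. In WT 0% of 40 calls and 32.3% of 31 calls were methylated, and in KO 100% of 6 calls and 41.9% of 31 calls. No cytosine of it had a call in all 4 libraries, so the levels come from different positions. Where both genotypes were read, from 71211577 to 71211720, no call was methylated. All methylated calls lay at positions read in only 1 genotype, so the cluster shows no difference at shared positions. The flank below Naa10, at chrX:71160571-71160779, had 4.17 and 6.56% in WT and 0% in both KO libraries. The cluster with the most cytosines, 59 at chrX:71212640-71213299 on the side of Renbp and Hcfc1, was near 0 throughout, at 1.49, 0.161, 0.182 and 0.303%. It lies in the windows at chrX:71212001-71213000 and chrX:71213001-71214000, which were tested above.

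**Figure D4:**
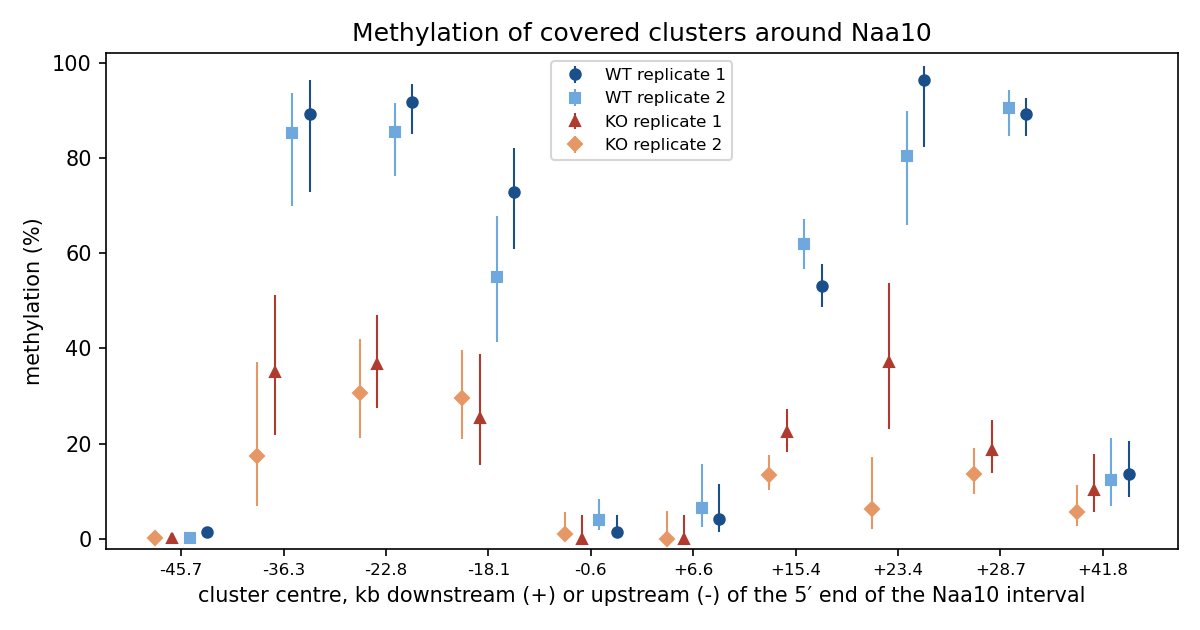
Methylation in percent (y axis, 95% Wilson intervals that treat every call as independent and are likely too narrow) of the 10 clusters of the stretch with at least 20 calls in every library, by the distance in kb of their centre from the 5′ end of the Naa10 interval (x axis). Clusters above 50% in WT lie well below their WT levels in both KO libraries. Clusters under 10% in WT reach at most 6.56% in a WT library and 1.03% in a KO library.

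The other genes of N-terminal acetylation were looked at through their promoters, 250 bases before to 50 after the start. Of 13 genes on the list, 11 could be placed on the deposited positions, and 10 of the 11 were below 5% in every library. The depth of these promoters was similar in both genotypes, with KO to WT ratios of 0.876 to 1.28, and none of their windows was called for depth. Each KO library was below each WT library at 3 of the 11, namely Naa11, Naa40, a histone N-terminal acetyltransferase, and Hypk, a NatA-binding protein, and the latter 2 were under 1% throughout. The opposite order was found at 1, Naa30, the catalytic subunit of NatC, with 0.121 and 0% in WT and 0.283 and 0.271% in KO. Over all tested 1 kb windows, 89.0% had each KO library below each WT library and 1.25% had the opposite order. Among windows under 10% in WT, a class that leaves out Naa11, these shares were 50.6 and 5.68%. The windows are 1 kb long and their levels come from pooled counts, so they are a rough background for promoter means. With pooled counts 2 of the 11 promoters had each KO library below each WT library. Neither 3 nor 2 of 11 is more than this background.

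Naa11 encodes a close relative of Naa10 that can also act as a catalytic subunit with Naa15. The 250 bases before its start are shown because it was the 1 placed promoter with sizeable methylation in WT (RefSeq GRCm38.p6, minus strand of chromosome 5, 5′ to 3′, CpG bases in capitals, 12 CpG sites and 2 copies of CCGG).
Naa11: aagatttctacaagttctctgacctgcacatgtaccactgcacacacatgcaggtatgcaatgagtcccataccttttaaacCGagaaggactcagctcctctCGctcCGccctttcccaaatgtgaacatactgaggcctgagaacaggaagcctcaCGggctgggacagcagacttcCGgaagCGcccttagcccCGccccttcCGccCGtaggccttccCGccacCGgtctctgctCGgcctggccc
Its promoter matched chr5:97821300-97821599 in the deposited positions and held 23 shared cytosines. These averaged 18.8 and 24.6% in WT against 2.14 and 0.249% in KO, or 21.7% ± 4.11 (SD, n = 2) against 1.19% ± 1.34 (SD, n = 2). At 22 of the 23 cytosines each KO library was below each WT library, an order found at 88.9% of all cytosines with a WT mean between 10 and 50%. In KO replicate 1, 16 of the 23 had no methylated call, and in KO replicate 2, 21 had none, whereas in the WT libraries each cytosine had at least 1. The 1 kb window of the start fell from 26.6 to 3.07%, a difference of -23.5 points (edgeR adjusted p = 1.64e-13). Its depth differed by -0.10 on the log2 scale (edgeR adjusted p = 0.857).

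The promoter of Naa15, the partner of Naa10, held 50 shared cytosines and had 0.269 and 0.179% in WT and 0.18 and 0.124% in KO. Its relative Naa16 had 0.0813 to 0.305% in WT and 0.0542 and 0.15% in KO. The catalytic subunits of the other complexes were as low, Naa20 at 0.374% ± 0.312 in WT against 0.196% ± 0.0674 in KO (SD, n = 2 each), Naa30 at 0.0606% ± 0.0857 against 0.277% ± 0.00861 (SD, n = 2 each), and Naa50 at 0.29% ± 0.142 against 0.2% ± 0.0184 (SD, n = 2 each). For the window of Naa50 edgeR gave adjusted p = 0.00452, but its difference of -0.39 points was far below the 10 points a call needed. Of the 11 genes, 1 was thus called for methylation, in the direction in which 76.3% of all windows were called.

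**Figure D5:**
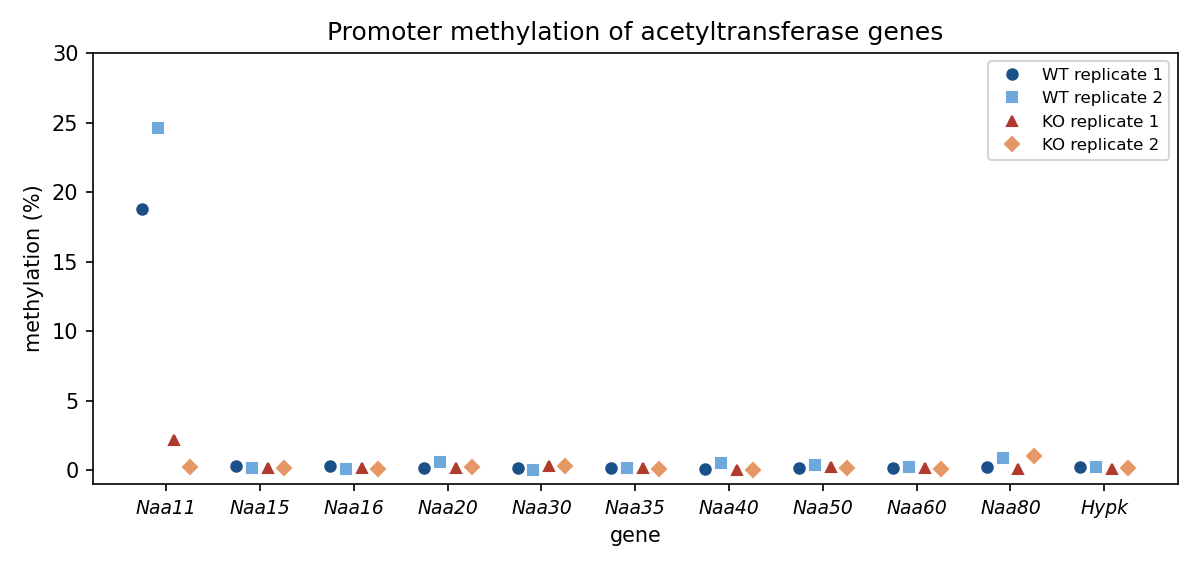
Mean promoter methylation in percent (y axis) of the 11 placed acetyltransferase genes (x axis) in each of the 4 libraries, over cytosines covered at least 10 times in all of them. Naa11 stands at 18.8 and 24.6% in WT and at 2.14 and 0.249% in KO, and the other 10 promoters are below 5% in every library.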

How the data were processed

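Genomic DNA of 2 WT and 2 Naa10-KO ES cell libraries was measured; groups come from the sample titles. The authors deposited 1 table per library with, per cytosine, its methylation percent and raw counts of methylated and unmethylated calls. The deposited percent equals the methylated share of the deposited counts, and the counts carry all values here. The submitters' processing notes name Bismark 0.10.1, Trim Galore and build mm9. Their settings and any removal of duplicates were not among the sources used here, and they could change depth. Library totals were 79540412, 68586396, 68929594 and 70594987 calls, and depth per cytosine in the stretch was low, so single cytosines are imprecise.

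Cytosines of the stretch were taken by position. The position of Naa10 came with the definition of the stretch, not from an annotation of mm9. Depth (methylated plus unmethylated counts) and methylation were tested in 1 kb windows of chromosomes 1 to 19, X and Y with edgeR 4.0.16 (R 4.3.3), TMM normalisation and Benjamini-Hochberg adjustment over all windows; methylation needed 3 cytosines with 10 calls in every library. Both tests were tried on simulated data. Library means were compared with exact permutation tests. Promoters (RefSeq) were placed on the counts by CpG spacing, with at least 8 positions on a CpG, at most 10% off and a margin of 4. Alternatives included DESeq2 1.42.0, limma 3.58.1, Fisher's exact test on pooled counts, other normalisations, filters, thresholds and window sizes, and leaving out each library.

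Named genes are Naa10, Renbp, Hcfc1, Arhgap4, genes the table places beside them, and the N-terminal acetyltransferase list; also named are the 5 clusters with most cytosines read in WT and not in KO, that at Naa10 included. The other windows of chromosome X called for depth were named after their values were seen. Members and lists were chosen with earlier results of these data known.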

Additional observations from a re-analysis of the deposited data

How the results depend on the processing

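The depth call at Naa10 was made under all 11 alternatives with 1 kb windows, and the number of windows of the stretch called for depth was 1 under each, also when any library was left out (1 to 1). Such a fit leaves 1 library in a genotype, which is assumed to vary like the pair of the other genotype, from which the spread then comes. Windows called for methylation numbered 3, with 3 to 3 when a library was left out, 4 at a coverage minimum of 5 and 2 at 20. The mean methylation difference ran from -24.3 to -20.9 points without 1 library and from -29.6 to -19.8 under the other alternatives. The KO to WT ratio of the share of calls was 0.695 to 0.783 without 1 library, and 0.945 over cytosines covered in all 4 libraries. The count of 16 cytosines covered in WT and not in KO became 6 with a WT minimum of 20 calls and 16 to 23 without 1 library. The window at chrX:71212001-71213000, not called, changed sign to 0.281 points at a coverage minimum of 20 and 0.261 points without WT replicate 1 (-2.09 to 0.261 without 1 library); the cause was not tested. Same-numbered libraries showed no shared deviation (correlation 0.00104 for depth over 254160 windows and -0.00388 for methylation over 121563), and a fit with the replicate number as a block gave 1 window for depth and 3 for methylation and changed no call. Depth limits the methylation values: 57 of 233 cytosines reached 10 calls in all libraries.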
